A study of Mus musculus with 51 samples.

Results

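The response of cultured Myc-CaP cells to TAK-243 was measured by RNA sequencing in 8 libraries, out of the 51 samples of a series on the ubiquitin-activating enzyme Uba1 in mouse cancer cells and tumors. Members were chosen by their labels: the 4 libraries with 50 nmol/L TAK-243 were compared with the 4 libraries without it. Myc-CaP is a mouse prostate cancer line, known as one derived from a prostate tumor driven by a human MYC transgene under an androgen-responsive promoter, and all 8 libraries came from the line itself, with no guide RNA or expression vector. The groups were control cells, cells with TAK-243, cells with 1 ng/mL IFN-γ, and cells with TAK-243 and IFN-γ, with 2 libraries per group and 18 hours of treatment. The question addressed is how the inhibitor changes the transcriptome of tumor cells outside the animal, with and without the cytokine.

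UBA1 is the main E1 enzyme of the ubiquitin pathway. Ubiquitin enters the pathway at this step, and the relay goes on through E2 enzymes and E3 ligases, which choose the substrates. Many modified proteins end in the 26S proteasome. TAK-243 is an inhibitor that forms an adduct with ubiquitin in the active site of UBA1 and thereby stops the transfer, so its target is the protein and not the mRNA. Proteins that are removed through ubiquitination, some of them only on a signal, include heat shock regulators, the NF-κB inhibitor IκB, p53, MYC and cyclins.

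Each library held between 12860987 and 16793889 estimated counts. Counts were found for 18828 to 19288 genes with TAK-243 and for 17848 to 18154 genes without it, and mitochondrially encoded genes took 1.8% to 2.15% of the counts. The first principal component separated the libraries by TAK-243 and held 80.1% of the variance, and the second separated them by IFN-γ with 7.24%. No pair of replicates held identical values. The labels do not say whether replicates were separate cultures, so p-values measure only the spread between these libraries. Krt19, Cldn3 and Hoxb13 were expressed, whereas the epithelial markers Epcam, Esrp1 and Cldn7 were under 1 CPM in all 8 libraries, with Cldn7 at 0, where marker levels are CPM of the plain library total without TMM factors. On that scale, of the immune, stromal, endothelial and melanocyte marker lists, the summed level was at most 39.4 in any library. With TAK-243 the sum of the endothelial list went from between 0.328 and 0.991 to between 1.83 and 3.39 CPM, that of the myeloid list from between 1.95 and 2.56 to between 6.45 and 7.33 CPM and that of the fibroblast list from between 22.6 and 26.5 to between 36.2 and 39.4 CPM, and the part of other cells in the results was not tested. In all that follows, CPM is the number of counts of a gene scaled to a common total, here the library total times a TMM factor, so it is a share of the measured RNA, and the amount of RNA per cell was not measured.

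TAK-243 changed most of the transcriptome. Among 14143 genes tested with edgeR's quasi-likelihood test, with IFN-γ as an additive term, 5163 genes (36.5%) were higher and 5366 (37.9%) were lower at a Benjamini-Hochberg adjusted p under 0.05. Changes of at least 2-fold were found for 1543 genes (10.9%) that rose and 1851 (13.1%) that fell. The log2 fold change was over 2 for 514 of the genes that rose and under -2 for 329 of those that fell, and the median over all genes tested was 0.03. With library totals in place of TMM factors the split was 4508 higher and 5958 lower. In 71.9% of the genes tested, the TAK-243 libraries lay apart from their counterparts on the same side at both IFN-γ levels. Of these genes 4948 were higher and 5226 lower, so groups without overlap were common. Against this background a gene list is described below by the number of its members that rose or fell and by its median.

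**Figure D1:**
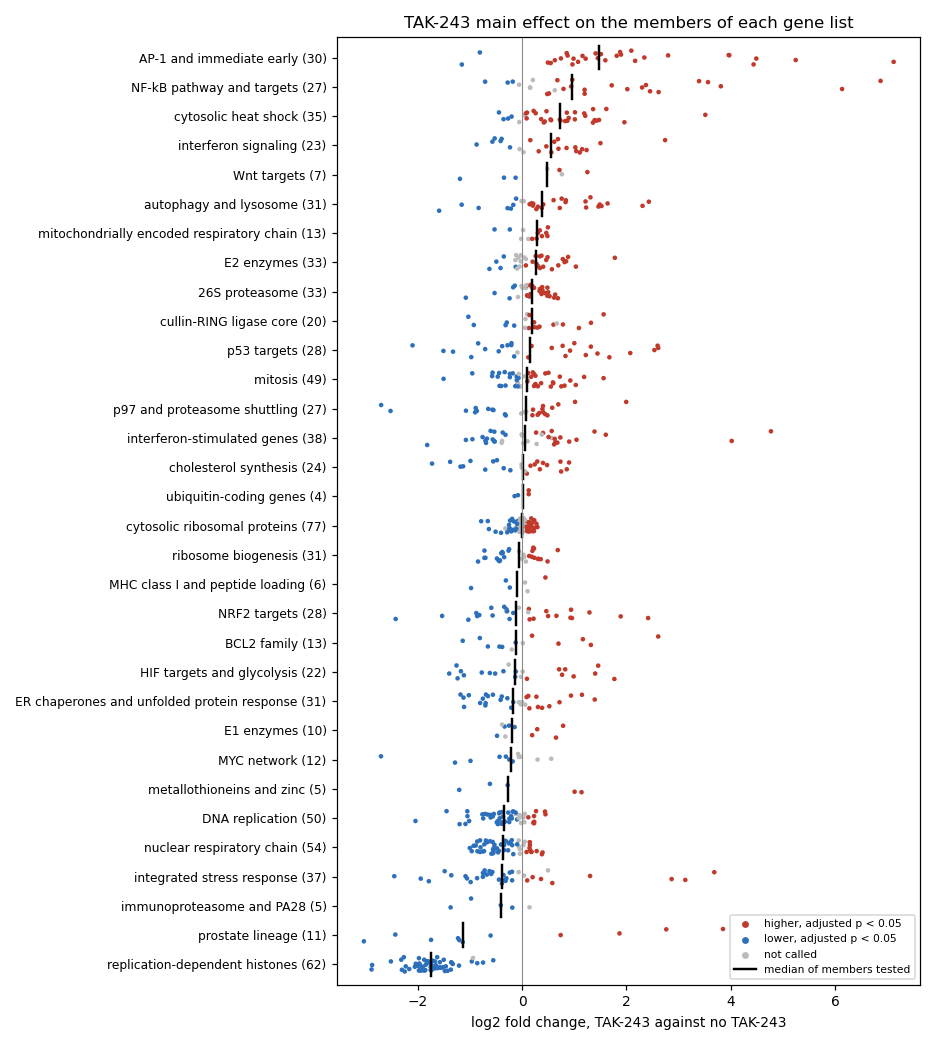
Log2 fold change of TAK-243 against no TAK-243 (horizontal axis) for each tested member of 32 gene lists (rows, number of members tested in parentheses). Red points are higher and blue points lower at an adjusted p under 0.05, grey points were not called, and black bars are list medians, which run from -1.75 for the replication-dependent histones to 1.48 for the AP-1 and immediate early genes.

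None of the E1 and ubiquitin-coding genes tested changed by 2-fold. Uba1, the gene of the drug target on chromosome X, was at 454 and 445 CPM in the controls, 540 and 559 CPM with IFN-γ, 595 and 567 CPM with TAK-243, and 644 and 630 CPM with both. At each IFN-γ level both TAK-243 libraries lay above both libraries without it, and the log2 fold change was 0.29 ± 0.03 (SE; edgeR adjusted p = 2.05e-08). Uba6, the other E1 that activates ubiquitin, rose by 0.65 ± 0.04 on the log2 scale, and Uba3, the catalytic subunit of the NEDD8 E1, by 0.79 ± 0.03. Uba2, the catalytic subunit of the SUMO E1, fell by 0.48 on the same scale. Of the 10 E1 genes tested, 4 rose and 4 fell. Ubiquitin-coding genes moved less, with log2 fold changes of 0.13 for Rps27a and -0.14 for Ubb. The call of Rps27a was lost with library totals.

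Among the 33 E2 conjugating enzymes, 19 rose and 5 fell, with a median log2 fold change of 0.26. Ube2h had the largest change of these, from 52.0 and 52.1 CPM in the controls to 179 and 188 CPM with TAK-243, and from 54.0 and 57.6 CPM with IFN-γ to 185 and 190 CPM with both. No library with TAK-243 overlapped one without it, and the log2 fold change was 1.78 ± 0.04. Of the 20 cullin-RING ligase core genes, 11 rose and 5 fell. The scaffolds Cul7 and Cul4a went in opposite directions, with log2 fold changes of 1.56 ± 0.07 and -1.03 ± 0.04. With library totals the number of E2 genes that fell was 10.

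The 33 genes of the 26S proteasome mostly rose by less than 2-fold: 23 rose, 5 fell and the median was 0.19. With library totals the number that fell was 8. Bonferroni adjustment left 14 that rose, and a tested minimum change of 1.5-fold left 1. Psmb2, a subunit of the core particle, had the largest increase, 0.69 ± 0.04 on the log2 scale. Psmd7, a lid subunit, was the exception in size, at 160 and 164 CPM in the controls and 79.0 and 78.1 CPM with TAK-243, and at 165 and 177 CPM with IFN-γ and 81.2 and 78.0 CPM with both. Its log2 fold change was -1.08 ± 0.04. Several genes that help assemble or serve the proteasome had lower levels. Psmg3, a proteasome assembly chaperone, fell from between 13.5 and 18.2 CPM in the 4 libraries without TAK-243 to between 2.57 and 3.01 CPM in the 4 with it. Ngly1, the enzyme that strips N-glycans from misfolded proteins and processes the proteasome regulator NFE2L1, was at 34.6 to 42.8 CPM without TAK-243 and at 5.07 to 7.65 CPM with it, a log2 fold change of -2.70 ± 0.10. Over the alternative ways of processing, the log2 fold change of Ngly1 ran from -2.934 to -0.585. Zfand2a, a stress-induced partner of the proteasome, rose from 16.5 to 20.4 CPM to 68.3 to 75.5 CPM. Of the 27 genes in this list of p97 and shuttling factors, 13 rose and 11 fell.

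Cytosolic chaperones rose together. Of the 35 heat shock genes tested, 29 were higher and 4 lower, 12 of them rose at least 2-fold and none fell at least 2-fold, and the median log2 fold change was 0.72. Summed over the list, the level was 14340 and 14380 CPM in the controls, 14590 and 14800 CPM with IFN-γ, 29190 and 29360 CPM with TAK-243, and 29330 and 29290 CPM with both. The 4 libraries with TAK-243 lay close together, as did the 4 without it. Hspb1, a small heat shock protein that holds unfolded clients, was at 140.5 and 136 CPM in the controls, 163 and 159.8 CPM with IFN-γ, 1613 and 1522 CPM with TAK-243, and 1887 and 1825 CPM with both. Its groups did not overlap and its log2 fold change was 3.52 ± 0.03 (edgeR adjusted p = 1.17e-28). The HSP90 gene Hsp90aa1 was at 1813 and 1820.0 CPM in the controls and at 6674 and 6922 CPM with TAK-243, a log2 fold change of 1.96 ± 0.03. The inducible HSP70 genes Hspa1b and Hspa1a had log2 fold changes of 1.48 ± 0.03 and 1.43 ± 0.05, which are near-identical copies whose reads the counting may divide between them. The lens and muscle chaperone Cryab, at 3.27 to 4.97 CPM without TAK-243, rose by 1.62 ± 0.12. The 4 members that fell did so by at most 0.44 on the log2 scale.

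Promoter windows of 300 bases, from 250 before to 50 after the gene start, were taken from RefSeq (GRCm38.p6) for 10471 of the tested genes (74.1%). The heat shock element was searched as GAANNTTC, which is its own reverse complement apart from the open bases, on both strands. It was found in 9 of the 28 heat shock promoters (32.1%), in 6.01% of the promoters of all genes tested and in 7.95% of all RefSeq promoters. Its share was 6.16% among all genes that rose at least 2-fold and 5.85% among those that fell at least 2-fold. One carrier in the list, the co-chaperone gene Fkbp4, fell by 0.35 on the log2 scale. Promoters of the largest riser and of the HSP110 gene Hsph1, whose log2 fold change was 1.39 ± 0.03, are shown because they carry the element, in capitals. The window of Hspb1 is chr5:135887669-135887968 on the plus strand and that of Hsph1 chr5:149636287-149636586 on the minus strand, and both are printed in the direction of transcription. A match is a description of these letters and not evidence of binding.
Hspb1: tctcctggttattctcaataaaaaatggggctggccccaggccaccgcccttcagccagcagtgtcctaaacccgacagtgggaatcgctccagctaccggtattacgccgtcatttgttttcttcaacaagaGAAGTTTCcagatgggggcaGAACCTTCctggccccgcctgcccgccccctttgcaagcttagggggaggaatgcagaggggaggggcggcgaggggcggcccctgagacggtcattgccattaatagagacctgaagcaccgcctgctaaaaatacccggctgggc
Hsph1: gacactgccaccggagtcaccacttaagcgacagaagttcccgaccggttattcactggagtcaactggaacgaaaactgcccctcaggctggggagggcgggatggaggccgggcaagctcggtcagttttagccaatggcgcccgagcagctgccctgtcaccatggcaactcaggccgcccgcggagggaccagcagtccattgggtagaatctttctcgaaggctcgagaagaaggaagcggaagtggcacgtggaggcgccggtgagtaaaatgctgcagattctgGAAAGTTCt

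Most of the autophagy and lysosome list rose. Of the 31 autophagy and lysosome genes tested, 22 were higher and 7 lower, with a median of 0.38. Sqstm1, the p62 receptor that carries ubiquitinated cargo to autophagosomes, was at 135 and 137 CPM in the controls, 169 CPM in both IFN-γ libraries, 785 and 766 CPM with TAK-243, and 872 and 854 CPM with both. The 4 TAK-243 libraries lay above the other 4, with a log2 fold change of 2.43 ± 0.03. Atg14, a subunit of the PI3-kinase complex that starts autophagosomes, rose from 9.04 to 10.7 CPM without TAK-243 to 45.8 to 49.6 CPM with it. Tax1bp1, another receptor for ubiquitinated cargo, rose by 1.64 on the log2 scale, and Ulk2, a kinase upstream of autophagy, fell by 1.59. Nbr1, a further cargo receptor, fell by 0.11.

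The integrated stress response split into members that rose and members that fell. This response is set off when eIF2α is phosphorylated, and its transcription factor ATF4 induces amino acid synthesis, tRNA charging and the factors CHOP and ATF3. Of the 37 genes tested, 8 rose and 26 fell, and the median log2 fold change was -0.39. Ddit3, which encodes CHOP, was at 1.92 and 1.87 CPM in the controls, 2.87 and 2.35 CPM with IFN-γ, 27.8 CPM in both TAK-243 libraries, and 29.5 and 30.7 CPM with both agents. Its log2 fold change was 3.69 ± 0.10 (edgeR adjusted p = 6.25e-20). Atf3 rose from 7.81 and 6.98 CPM in the controls to 74.7 and 71.7 CPM with TAK-243, with a log2 fold change of 3.13 ± 0.07, and Ppp1r15a, the phosphatase subunit that ends the response, rose by 2.87 ± 0.05. In each of these genes the libraries with and without TAK-243 did not overlap.

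The other 5 members that rose were Nupr1, Trib3, Sesn2, Cars and Nars, the last a tRNA-charging enzyme like Cars, with log2 fold changes of 0.10 for Nars to 1.30 for Nupr1. Among the 26 that fell, Slc7a11, the cystine importer, was at 219.5 and 220.3 CPM in the controls, 194 and 198 CPM with IFN-γ, 54.9 and 56.5 CPM with TAK-243, and 52.9 and 52.3 CPM with both, a log2 fold change of -1.94 ± 0.03. Aldh1l2, a mitochondrial folate enzyme, was at 34.1 to 38.2 CPM without TAK-243 and at 5.90 to 7.17 CPM with it, a log2 fold change of -2.45 ± 0.08. Pck2, the mitochondrial PEP carboxykinase, fell by 1.79. Atf4 itself did not pass the test, at 264 to 294 CPM without and 272 to 296 CPM with TAK-243 (log2 fold change 0.04, edgeR adjusted p = 0.223).

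The C/EBP-ATF response element, searched as TGATGNAA on both strands, was found in 10 of the 29 integrated stress response promoters (34.5%), in 2.54% of the promoters of all genes tested and in 4.06% of all RefSeq promoters. Carriers were found among members that rose (Atf3, Trib3 and Nupr1) and among members that fell (Slc7a11, Pck2, Asns, Chac1, Gars, Tars and Aars). A riser and a pair of fallers are shown, with the element in capitals on whichever strand it lies. Their windows are chr1:191183284-191183583 on the minus strand for Atf3, chr3:50443564-50443863 on the minus strand for Slc7a11 and chr14:55540016-55540315 on the plus strand for Pck2, each printed in the direction of transcription.
Atf3: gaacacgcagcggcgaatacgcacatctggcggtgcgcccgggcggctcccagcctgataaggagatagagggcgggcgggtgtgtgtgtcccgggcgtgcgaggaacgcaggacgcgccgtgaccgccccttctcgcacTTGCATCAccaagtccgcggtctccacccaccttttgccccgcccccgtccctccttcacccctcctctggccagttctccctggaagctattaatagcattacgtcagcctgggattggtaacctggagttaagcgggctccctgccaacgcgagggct
Slc7a11: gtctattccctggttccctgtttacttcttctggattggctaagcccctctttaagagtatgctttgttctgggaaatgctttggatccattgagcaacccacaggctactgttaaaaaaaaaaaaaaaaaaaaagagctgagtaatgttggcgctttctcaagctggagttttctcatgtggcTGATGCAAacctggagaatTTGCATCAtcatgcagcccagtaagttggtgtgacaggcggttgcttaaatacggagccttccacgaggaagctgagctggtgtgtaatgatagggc
Pck2: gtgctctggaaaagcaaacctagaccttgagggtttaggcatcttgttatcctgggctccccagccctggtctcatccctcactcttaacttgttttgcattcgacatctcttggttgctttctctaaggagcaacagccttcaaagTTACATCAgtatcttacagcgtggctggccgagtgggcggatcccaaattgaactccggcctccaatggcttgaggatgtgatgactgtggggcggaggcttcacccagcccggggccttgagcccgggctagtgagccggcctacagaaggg

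Secretory pathway and oxidative stress lists showed no common direction. Of 31 genes of ER chaperones and the unfolded protein response, 11 rose and 16 fell. Dnajb9, an ER co-chaperone, rose by 1.39 ± 0.07 on the log2 scale, and Pdia4, a disulfide isomerase, fell by 1.12. Of 28 NRF2 targets, 12 rose and 13 fell. Hmox1, heme oxygenase, rose from 9.54 to 12.2 CPM without TAK-243 to 38.2 to 41.4 CPM with it, whereas Ephx1, an epoxide hydrolase, had a log2 fold change of -2.42 ± 0.09.

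**Figure D2:**
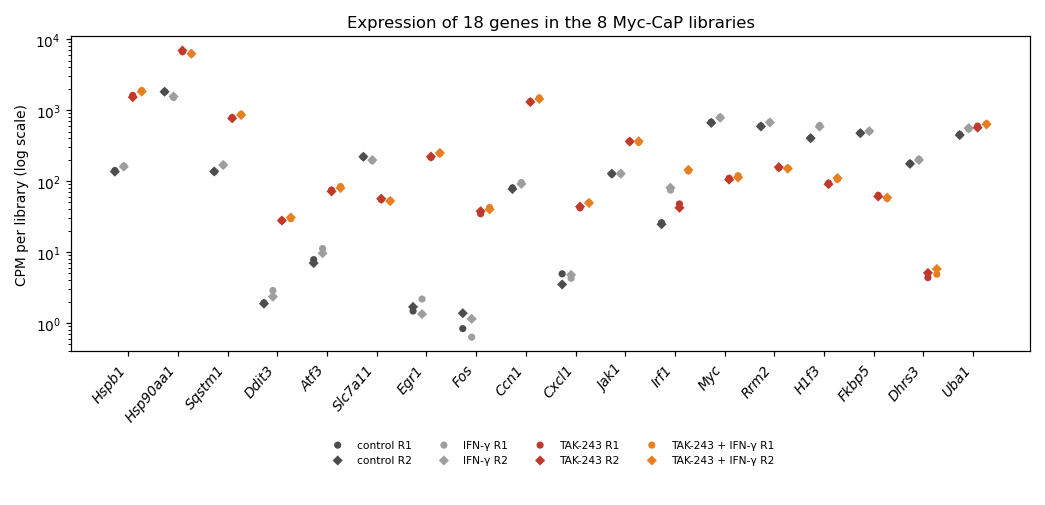
CPM (vertical axis, log scale) of 18 genes in each of the 8 libraries, circles for replicate 1 and diamonds for replicate 2. Hspb1, Ddit3 and Egr1 lie higher in all 4 TAK-243 libraries, Myc, Rrm2 and Dhrs3 lie lower, and Irf1 is highest with both agents, at 139 and 144 CPM.

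Immediate early genes had the largest median of the lists, 1.48. These genes encode AP-1 and EGR factors and phosphatases of the MAP kinases, and many are induced within minutes of growth factor or stress signals and have short-lived mRNAs. Of 30 tested, 28 rose, 20 of them at least 2-fold, and 2 fell, Klf2 and Jund. Egr1, a zinc finger transcription factor, was at 1.47 and 1.68 CPM in the controls, 2.17 and 1.33 CPM with IFN-γ, 216 and 222 CPM with TAK-243, and 247 CPM ± 3.1 (mean and SD, n = 2) with both, a log2 fold change of 7.13 ± 0.07 (edgeR adjusted p = 1.17e-28). Egr1 was named under a rule that required every TAK-243 library to lie above its counterparts. Fos, the AP-1 partner of JUN, rose from 0.631 to 1.37 CPM to 34.6 to 42.4 CPM, with a log2 fold change of 5.25 ± 0.12, and Jun rose by 1.22 ± 0.04. Ier3, an early gene linked to survival, was at 15.8 to 21.1 CPM without TAK-243 and 265 to 297 CPM with it. Ccn1, a secreted matricellular protein, rose from 77.3 to 95.4 CPM to 1300.0 to 1483 CPM, a log2 fold change of 4.01 ± 0.03.

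NF-κB targets rose as well. This pathway is restrained by IκB proteins, which are removed by ubiquitination, and its targets include chemokines and its own subunits. Of 27 genes tested, 19 rose, 13 of them at least 2-fold, 3 fell, and the median was 0.96. Cxcl1, a neutrophil-attracting chemokine, was at 4.93 and 3.49 CPM in the controls, 4.27 and 4.77 CPM with IFN-γ, 42.0 and 43.8 CPM with TAK-243, and 49.5 and 49.2 CPM with both. Cxcl2, which binds the same receptor, rose from 0.210 to 0.448 CPM to 20.6 to 28.8 CPM. The groups did not overlap in either gene, which a rule that named Cxcl2 required at each IFN-γ level. Relb, a subunit of the alternative pathway, had a log2 fold change of 3.57 ± 0.12, and Tnfaip2 one of 3.81 ± 0.16.

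p53 targets went both ways. Trp53 itself rose by 0.78 ± 0.04 on the log2 scale. Of 28 targets tested, 15 rose and 12 fell. Pmaip1, the BH3-only protein NOXA, was at 33.0 and 34.0 CPM in the controls, 26.1 and 27.2 CPM with IFN-γ, 182 and 198 CPM with TAK-243, and 180.0 and 176 CPM with both, a log2 fold change of 2.61 ± 0.05. Cdkn1a, the CDK inhibitor p21, rose from 13.8 to 20.8 CPM to 64.8 to 80.05 CPM, and Ercc5, a DNA repair nuclease, fell by 2.10. Among the 13 BCL2 family genes tested, 5 rose and 6 fell. Bcl2 had a log2 fold change of -1.14 ± 0.08, and Mcl1, whose short-lived protein opposes NOXA, stood at 199 to 209.6 CPM without and 199 to 212 CPM with TAK-243, with overlapping groups.

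Replication-dependent histones fell almost without exception. These genes are expressed in S phase, lie in clusters, and make mRNAs that end in a stem-loop in place of a poly(A) tail. Of 62 tested, none rose, 61 fell and 57 fell at least 2-fold. The median log2 fold change was -1.75, beside 0.03 for all genes tested, and the members ranged from -2.88 to -0.55. Hist1h2br was not called. Their summed level was 11820 and 11420 CPM in the controls, 17630 and 17710 CPM with IFN-γ, 4139 and 4200 CPM with TAK-243, and 4799 and 4639 CPM with both. The sum was higher with IFN-γ than without it both in the absence and in the presence of TAK-243, without overlap. H1f3, a linker histone, was at 404 and 403 CPM in the controls, 607 and 586 CPM with IFN-γ, 93.5 and 90.4 CPM with TAK-243, and 106 and 110.4 CPM with both, a log2 fold change of -2.30 ± 0.05 (edgeR adjusted p = 2e-22). Histone genes are near-identical copies, and Hist1h2bq, at 0 to 34.3 CPM within the TAK-243 libraries, is an example of counts that the counting may divide unevenly. The labels describe poly(A) selection and the methods of the study describe removal of ribosomal RNA, which differ in how they treat mRNAs without a tail, and the part of this in the result was not tested.

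Other cell cycle lists went separate ways. Of 50 DNA replication genes, 8 rose and 35 fell, and the median was -0.35. Rrm2, the small subunit of ribonucleotide reductase, was at 597 and 589 CPM in the controls, 672 CPM in both IFN-γ libraries, 154 and 157 CPM with TAK-243, and 152 and 149.6 CPM with both, a log2 fold change of -2.04 ± 0.04. Rfc5, a subunit of the clamp loader, fell by 1.45. Of 49 mitotic genes, 24 rose and 19 fell, and the median was 0.10. Ccnb2, a B-type cyclin, had a log2 fold change of -1.504 ± 0.04 and Cenpf, a kinetochore protein, one of 1.56 ± 0.03. The cyclin D1 gene Ccnd1 was at 551 to 626 CPM without TAK-243 and 246 to 261 CPM with it. Slbp, named after its values were seen because its protein binds the histone stem-loop, rose by 0.54 ± 0.03.

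Myc was among the strongly lowered genes of high level. It was at 677 and 660.4 CPM in the controls, 793 and 781 CPM with IFN-γ, 109.7 and 105 CPM with TAK-243, and 119 and 112 CPM with both, a log2 fold change of -2.70 ± 0.03 (edgeR adjusted p = 3.91e-26). No library with TAK-243 came near one without it. Of the 12 genes of the MYC network tested, 7 fell and none rose, and Max was not called. How reads of a human MYC transgene would enter this mouse gene's count was not tested.

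Prostate lineage and hormone-responsive genes fell in part. Of 11 tested, 7 fell and 4 rose, and the median was -1.14. Fkbp5, a co-chaperone and hormone-responsive gene, was at 474 CPM in both controls, 504 and 505 CPM with IFN-γ, 63.0 and 60.6 CPM with TAK-243, and 57.0 and 58.6 CPM with both, a log2 fold change of -3.03 ± 0.04. The prostate homeobox gene Hoxb13 fell by 1.74. The 4 members that rose were Krt8, Krt18, Krt14 and Acpp. With at least 10 counts in every library, 2 members of this list rose. Krt18 was at 0.0636 to 0.404 CPM of the plain library total without TAK-243. Krt8, the luminal keratin, rose from 3.01 to 4.10 CPM to 11.2 to 15.5 CPM, and Krt14, a basal keratin, from 0.064 to 0.701 CPM to 5.58 to 7.41 CPM. Krt15 was high in this line, at 946 to 1049 CPM, and was at 141 to 144 CPM with TAK-243.

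Nuclear genes of the respiratory chain fell by small amounts. Of 54 tested, 10 rose and 38 fell, and the median was -0.37. Ndufb4, a complex I subunit, fell by 1.001 on the log2 scale, the only member to fall at least 2-fold. Of the 13 mitochondrially encoded genes, 8 rose and 2 fell, and the median was 0.28. mt-Nd5 rose by 0.49 ± 0.03 and mt-Nd6, the only one of these subunits encoded on the other strand, fell by 0.53. Cytosolic ribosomal protein genes showed no common shift, with 25 of 77 higher, 18 lower and a median of 0.00, although with library totals 11 were higher and 42 lower.

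**Figure D3:**
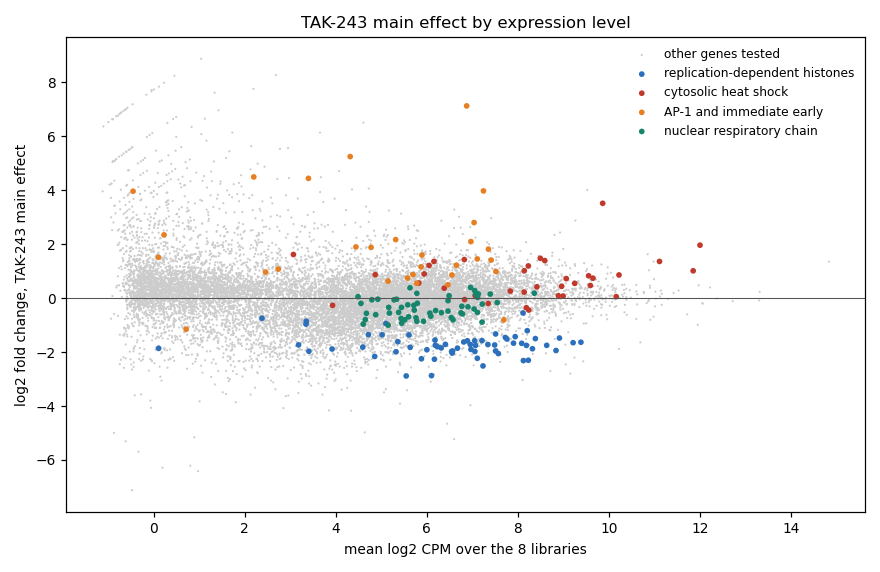
Log2 fold change of TAK-243 (vertical axis) against the mean log2 CPM over the 8 libraries (horizontal axis) for all 14143 genes tested, with members of 4 lists in colour. Replication-dependent histones lie below 0 at every expression level and the immediate early genes reach 7.13 for Egr1.

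The genes named for the largest increases include several that were close to silent without the drug. 1700016G22Rik, a long noncoding RNA gene at chr13:5855508-5858092 on the minus strand (GRCm38), was at 0 in all 4 libraries without TAK-243 and at 3.19 to 4.27 CPM with it. Counted against a floor of 3 counts over the 4 libraries together, it was at least 79.7-fold higher. Krt16, a keratin of stressed epithelium, had 0 CPM in 3 libraries and 0.127 CPM in 1 library without TAK-243 and 11.3 to 14.1 CPM with it, a ratio of 389 (95% counting interval, 107 to 3221). Genes known from neurons were also among these. Stmn4, a regulator of microtubules, reached 6.39 to 11.8 CPM with TAK-243, a ratio of 274 (75.5 to 2269). Tubb3, a neuronal tubulin, reached 4.24 to 5.57 CPM, a ratio of 297 (52.8 to 11760.0). Prph, a neurofilament protein, reached 3.46 to 4.58 CPM, a ratio of 127 (34.7 to 1053). Iqcn was at 0.445 to 0.631 CPM without and 42.2 to 54.2 CPM with TAK-243. These intervals cover counting error only. The rule that named these genes ranked them by log2 fold change and required every TAK-243 library to lie above its counterparts. Neither the separation nor the low level without the drug is a result.

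Among the genes named for the largest decreases were some of moderate level. Dhrs3, a retinaldehyde reductase, was at 176 and 175 CPM in the controls, 203 and 198 CPM with IFN-γ, 4.36 and 5.07 CPM with TAK-243, and 4.86 and 5.77 CPM with both, a log2 fold change of -5.23 ± 0.05 (edgeR adjusted p = 1.42e-27). Klf15, a zinc finger transcription factor, fell from 43.5 to 51.6 CPM to 1.34 to 1.72 CPM, a log2 fold change of -4.98 ± 0.10. Igfbp5, an IGF-binding protein, fell from 157 to 176 CPM to 6.02 to 7.03 CPM. Krt78 fell from 225 to 237 CPM to 13.8 to 15.4 CPM. The rule that named these 4 genes required every TAK-243 library to lie below its counterparts at both IFN-γ levels, so that separation is no result. It also required a mean log2 CPM of at least 1 over the 8 libraries, so the level without the drug is no result either.

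Interferon pathway genes changed in both directions. IFN-γ binds its receptor, and the kinases JAK1 and JAK2 pass the signal to transcription factors that induce IRF1 and further targets. Of 23 genes of interferon signaling, 15 rose and 6 fell, and the median was 0.56. Jak1 was at 126 and 127 CPM in the controls, 127 CPM in both IFN-γ libraries, 363 and 361 CPM with TAK-243, and 352 and 364 CPM with both, a log2 fold change of 1.504 ± 0.03 (edgeR adjusted p = 9.34e-23). Jak2 fell by 0.52 on the log2 scale. Socs1, the feedback inhibitor of JAK kinases, was at 1.09 and 1.31 CPM in the controls, 2.87 and 3.43 CPM with IFN-γ, 12.1 and 12.7 CPM with TAK-243, and 16.4 CPM ± 0.53 (mean and SD, n = 2) with both, a log2 fold change of 2.74 ± 0.15. Ifngr2 rose by 1.24, and Ifngr1, at 21.3 to 25.7 CPM without and 18.5 to 23.8 CPM with TAK-243, was not called. Stub1, the E3 ligase also called CHIP, fell by 0.57 ± 0.05.

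Irf1 encodes a transcription factor that carries the interferon signal to further genes. Irf1 was at 25.9 and 24.6 CPM in the controls, 74.5 and 80.5 CPM with IFN-γ, 47.6 and 42.0 CPM with TAK-243, and 139 and 144 CPM with both, a log2 fold change of 0.85 ± 0.05. It was higher with IFN-γ at both drug levels, and the libraries with TAK-243 lay above their counterparts.

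Of 38 interferon-stimulated genes, 15 rose and 14 fell, and the median was 0.07. Over all genes tested 36.5% rose and 37.9% fell. With at least 10 counts in every library 6 of these genes rose, and the number that fell moved less. Cxcl10, a T cell chemokine, was at 0 CPM in both controls, 0.560 and 0.635 CPM with IFN-γ, 3.13 and 3.54 CPM with TAK-243, and 13.04 and 13.1 CPM with both. Each TAK-243 group lay above its counterpart. Cxcl9 was low in all libraries, at 0.576 to 1.19 CPM without and 0.725 to 2.68 CPM with TAK-243, and its groups overlapped although it was called, with a log2 fold change of 0.90 ± 0.33. The Cxcl9 call was lost without replicate 1 or 2 of IFN-γ (adjusted p = 0.0816 and 0.083) or replicate 1 of both agents (adjusted p = 0.129), and on both TPM scales. Igtp, an interferon-inducible GTPase, was at 33.1 and 33.2 CPM with IFN-γ and at 14.9 and 15.3 CPM with both, and under 1 CPM in the 4 libraries without IFN-γ. Its call was lost with DESeq2, where the log2 fold change was -0.32 (adjusted p = 0.723). Cd274, which encodes PD-L1, rose from 2.49 to 3.50 CPM to 5.90 to 10.3 CPM.

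B2m, the light chain of MHC class I, was at 100.4 and 102 CPM in the controls, 117 and 119 CPM with IFN-γ, 132 CPM in both TAK-243 libraries, and 164 and 172 CPM with both, a log2 fold change of 0.45 ± 0.03. Of the 6 peptide loading and MHC class I genes tested, B2m rose and Erap1, Tap2 and Tapbpl fell. With DESeq2 the calls of Tap2 and Tapbpl were lost, at adjusted p of 0.0799 and 0.0743. That of Tap2 was also lost without replicate 2 of IFN-γ (adjusted p = 0.0785), and that of Tapbpl without replicate 1 of IFN-γ (adjusted p = 0.0756) or replicate 2 of both agents (adjusted p = 0.0508). Erap1, which trims peptides in the ER, fell from 34.8 and 35.7 CPM to 13.8 and 15.1 CPM without IFN-γ and from 50.3 and 57.4 CPM to 33.2 and 31.1 CPM with it. Of the 5 immunoproteasome and PA28 genes, 4 fell and none rose, and 2 lay apart on the same side at both IFN-γ levels. On both TPM scales 2 fell, as the calls of Psmb9 and Psme1 were lost. That of Psme1 was also lost with DESeq2 (adjusted p = 0.0743). With 1 mean fitted per group, 1 member of this list was higher. Psmb10, an inducible core subunit, was at 30.5 and 33.4 CPM with IFN-γ and 17.1 and 16.7 CPM with both agents. H2-K1 and H2-D1 were not analysed here.

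The drug effect was next compared between the 2 IFN-γ levels. Fitted with 1 mean per group, TAK-243 raised 4654 genes (32.9%) and lowered 4912 (34.7%) without IFN-γ, and raised 4647 (32.9%) and lowered 5203 (36.8%) with it. Between these effects 8620 genes were called in the same direction and 20 in opposite directions. The difference itself was called for 57 genes (0.403%) that were higher and 257 (1.82%) that were lower with IFN-γ than without it. Leaving out 1 library at a time, the number of differences called ran from 85, without replicate 2 of TAK-243 with IFN-γ, to 329, against 314 with all libraries.

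Many replication-dependent histones had a lower drug effect with IFN-γ than without it. A lower effect was not always a stronger fall, as Uba1 rose by 0.37 without IFN-γ and by 0.21 with it. Of the 257, 45 were among the 62 replication-dependent histones, and 24 were among the 77 ribosomal protein genes. The histone count was 30 to 48 when 1 library was left out in turn and 37 with DESeq2. H1f2, a linker histone, was at 234 and 231 CPM in the controls, 348 CPM in both IFN-γ libraries, 71.9 and 74.6 CPM with TAK-243, and 72.9 and 75.1 CPM with both. The drug effect was -1.67 without and -2.23 with IFN-γ on the log2 scale, a difference of -0.57 ± 0.05 (edgeR adjusted p = 1.14e-07). The 4 TAK-243 libraries overlapped each other and the IFN-γ libraries were the highest. Seen the other way, IFN-γ raised 59 of the 62 histones without TAK-243 (19.5% of all genes tested rose and 10.3% fell) and 27 with it (5.98% of all genes tested rose and 4.99% fell), with median log2 fold changes of 0.60 and 0.16.

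A few interferon targets differed in the other direction. The drug lowered Erap1 by 1.30 on the log2 scale without IFN-γ and by 0.75 with it, a difference of 0.55 ± 0.13 (edgeR adjusted p = 0.0147). Tgtp1, an interferon-inducible GTPase, was at 2.24 and 1.31 CPM in the controls and 0.246 and 0.322 CPM with TAK-243, and at 23.1 and 23.7 CPM with IFN-γ and 35.6 and 34.3 CPM with both. It was thus lower with the drug in the absence of IFN-γ and higher with the drug in its presence, a difference of 3.21 ± 0.44 (edgeR adjusted p = 1.89e-05). Nnt is listed under 2 entries, of which 1 was at 25.4 and 40.2 CPM in the controls and 1.26 and 0 CPM with IFN-γ, and how reads were divided between the entries is uncertain.

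**Figure D4:**
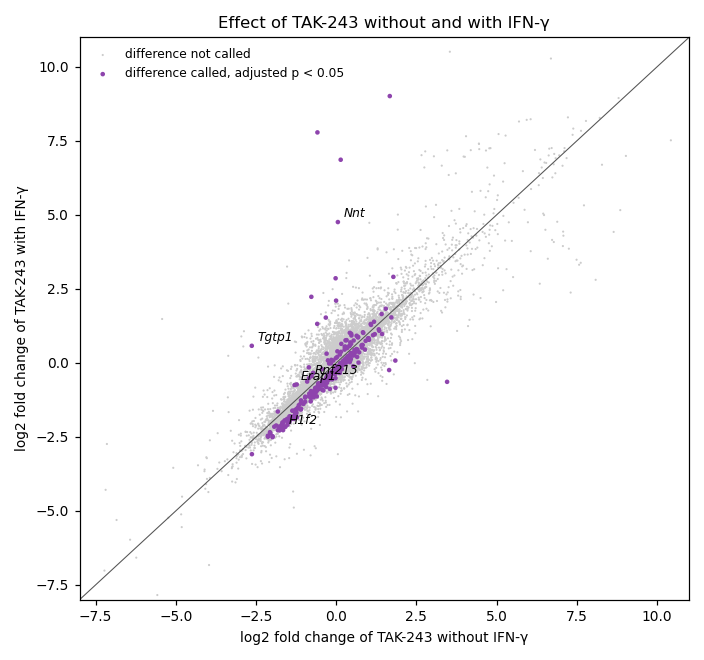
Log2 fold change of TAK-243 with IFN-γ (vertical axis) against that without it (horizontal axis) for 14143 genes, purple where the difference was called. The line marks equal effects, and 8620 genes were called in the same direction on both axes.

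The drug was set beside guide-directed depletion of its target gene in the same line. In the 8 libraries of that experiment, cells with a guide against Uba1 were compared with cells with a non-targeting guide, again with and without IFN-γ. By the methods of the study, such lines were grown from single sorted cells, so guide and clone cannot be told apart. With the guide, the median log2 fold change of the genes of a whole chromosome ran from -0.288 on chromosome 2 to 0.198 on chromosome 12. Uba1 had a log2 fold change of -0.999 there and 0.29 with TAK-243. The guide raised 2907 genes (19.1%) and lowered 3095 (20.4%) of 15194 tested, with a median size of the log2 fold change of 0.20, beside 0.53 for the drug. Of the 10272 genes called with the drug and tested with the guide, 4902 were also called with the guide, 2512 of them in the same direction. The experiments share no library.

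The difference between drug and guide was tested in 1 fit of all 16 cell libraries, in which 4653 genes (30.3%) were higher and 5146 (33.5%) lower with the drug than with the guide. Heat shock genes had higher drug effects in 25 of 35, and immediate early genes in 27 of 30. Hspb1 had a log2 fold change of -1.08 with the guide, a difference of 4.58 (edgeR adjusted p = 3.42e-22), and Ier3 one of -1.12, a difference of 5.08. Interferon-stimulated genes went the other way, with 24 of 38 lower and 4 higher with the drug than with the guide. Igtp had log2 fold changes of 3.02 with the guide and -1.08 with the drug, the latter not called with DESeq2 (-0.32, adjusted p = 0.723) or with 1 mean per group (-0.21, adjusted p = 0.64). Slc7a11 and Aldh1l2 fell in both, with -1.28 and -1.79 with the guide, and 30 of the 37 integrated stress response members fell with the guide. Of the 62 histones, 22 fell and 1 rose with the guide, with a median of -0.13. Krt19, a keratin, stood at -6.36 with the guide and -0.75 with the drug.

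**Figure D5:**
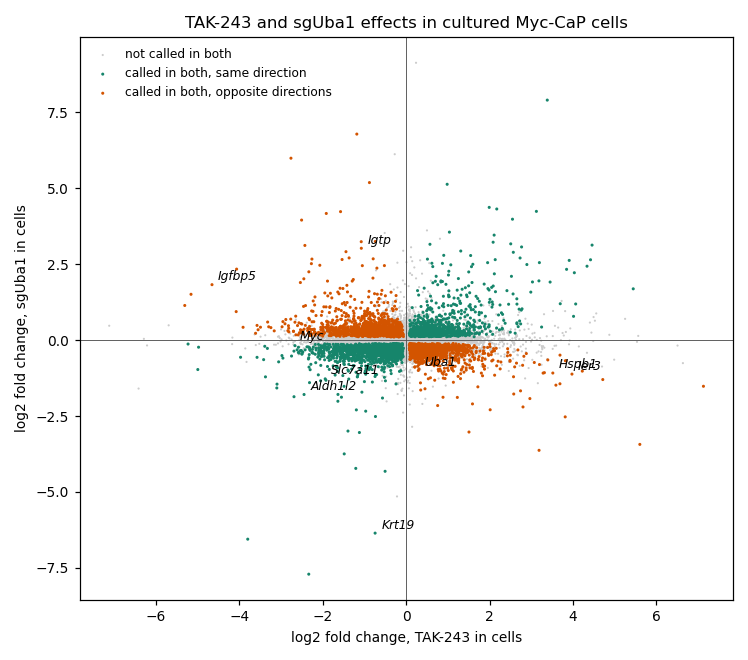
Log2 fold change with the Uba1 guide (vertical axis) against that with TAK-243 (horizontal axis) for genes tested in both. Green and orange points are the genes called in both, 2512 of 4902 in the same direction, and Uba1 itself lies at 0.29 with the drug and -0.999 with the guide.

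Myc-CaP tumors of mice given TAK-243 were compared with tumors of mice given vehicle, 5 against 6. Of 17299 genes tested, 15 (0.0867%) were higher and 10 (0.0578%) lower. Of the 10, 7 were in the list of replication-dependent histones. H4f16, a histone gene outside that list, was also among the 10, with a log2 fold change of -0.976. Of the 62 listed histones, 61 had a log2 fold change below 0, with a median of -1.27. Over all genes tested in tumors 47.6% were below 0, and the DNA replication, mitosis and ribosomal protein lists were below 0 in 50 of 50, 49 of 49 and 77 of 77 members, with medians of -0.70, -0.70 and -0.13. The 15 genes that rose include neutrophil and myeloid genes, with log2 fold changes of 3.63 for S100a8, 4.03 for S100a9 and 6.43 for Ltf, and the part of host cells in the histone values was not tested. Rrm2 had a value of -1.38 in tumors, with an edgeR adjusted p of 0.0701. The heat shock list had no member called, and Hspb1 stood at 0.21 in tumors beside 3.52 in cells. Jak1 stood at 0.01 in tumors beside 1.504 in cells. Tumors hold host cells as well as Myc-CaP cells, dose and time differ from those in culture, and fewer cells of a type and less RNA per cell cannot be told apart there, so the values stand side by side and their difference was not tested.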

How the data were processed

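RNA was sequenced from 8 Myc-CaP libraries. Per the submitters' processing notes, reads were quantified with kallisto on mm10, with the version and the transcript annotation not given in the sources used here. The authors deposited expected counts and TPM per gene for 40077 genes. Expected counts were rounded to whole numbers. Genes were kept with filterByExpr, libraries were scaled with TMM, and edgeR 4.0.16 (R 4.3.3) was fitted by quasi-likelihood with TAK-243 and IFN-γ as additive terms, all p-values being Benjamini-Hochberg adjusted at 0.05 over all genes tested. Effects at each IFN-γ level and their difference came from 1 mean per group, and drug and guide were compared in 1 fit of 16 libraries. The TPM values the authors deposited were used only in an alternative. The fit was tested on simulated data with 200 genes changed, raised or lowered at random. Far more genes changed in these data, so that test does not bear on the scaling.

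Members and lists were chosen with earlier results of these data known. Named genes are the 10 largest changes in each direction among called genes with every drug library apart from its counterparts, up to 5 called members per list, genes the study names, and the 5 smallest p-values per direction of both difference tests, with a mean log2 CPM of at least 1. Hsph1, Pck2, Atf4, Trib3, Nupr1, Asns, Chac1, Gars, Tars, Aars, Klf2, Jund, Max, Slbp, Krt18, Acpp, Sesn2, Cars, Nars, Nbr1, Fkbp4, S100a8, S100a9, Ltf, H4f16 and Hist1h2br were named after their values were seen. Alternatives were DESeq2 1.42.0, limma 3.58.1 (voom, and limma-trend on log2 TPM with a pseudocount of 1 or 0.1), other scaling, filters and thresholds, the replicate number as a block, and each library left out. Counts of changes of at least 2-fold, and the histone count of the difference test, were added after seeing the data. The replicate numbers were checked for pairing by the correlation of deviations from group means, which ran from 0.0443 to 0.15 over 6 pairs of groups, not all over 0.1, so the numbers were not taken to pair libraries. Gene positions were from GENCODE M21 on GRCm38 (39867 genes matched by stable ID). Promoters matched 10471 genes tested, under 80% of them, the first being used where RefSeq lists several. Some genes are not reported here.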

Additional observations from a re-analysis of the deposited data

Results flagged for a closer look

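The effect of TAK-243 differed between cells with and without IFN-γ, by edgeR's test of the difference itself, for 25 of the genes named by rule. Of these, 10 were named because they had the smallest p-values of this same test, so the number and its makeup are no result, and over all 14143 genes 314 were called. Each value is the effect with IFN-γ minus that without it on the log2 scale, and a negative value of a gene lowered at both levels means a stronger fall with IFN-γ.

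Among histones, the difference was -0.566 for H1f2, -0.496 for H4c6, -0.482 for H2bc18, -0.481 for Hist1h4n, -0.456 for H2ac10, -0.368 for H1f5 and -0.33 for H1f3. H4c6 fell by 1.42 without IFN-γ and by 1.92 with it. Rrm2, the ribonucleotide reductase subunit, differed by -0.226.

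Among genes of translation and the ubiquitin pathway, the difference was -0.201 for Rps20, -0.156 for Rps9, -0.142 for Rpl13a and -0.16 for Uba1. Rmrp, the RNA component of RNase MRP, differed by -0.447, with an effect of 0.11 without IFN-γ and -0.34 with it. The epithelial genes Cldn3 and Krt19 differed by -0.344 and -0.334, and Mxi1, an antagonist of MYC, by -0.4.

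Positive differences were found for the interferon-inducible genes Rnf213, at 0.331, Dtx3l, at 0.503, Erap1, at 0.549, and Tgtp1, at 3.208. The mitochondrially encoded genes mt-Nd5 and mt-Nd6 differed by 0.157 and 0.383. Zbtb20, a transcription factor, differed by 0.317 and D10Wsu102e by 0.268. Nnt differed by 4.705 in 1 of its 2 entries, at 25.4 and 40.2 CPM in the controls and 1.26 and 0 CPM with IFN-γ.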

How the results depend on the processing

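With TAK-243 as the term, 5163 genes rose and 5366 fell. DESeq2 gave 4949 and 5057, voom 5155 and 5376, and leaving out 1 library at a time 4755 to 5079 and 5265 to 5492. A tested minimum change of 1.5-fold left 2171 higher and 2699 lower, and Bonferroni adjustment left 3090 higher. With library totals 43.1% of the called genes were higher, beside 49% with TMM, and the median of all genes moved from 0.03 to -0.05. At least 10 counts in every library left 918 genes that rose at least 2-fold, beside 1543, and log2(TPM + 1) left 1210 that fell at least 2-fold, beside 1851.

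The test of the difference between IFN-γ levels called 314 genes, 219 with DESeq2 and 85 to 329 with 1 library left out. The count was 177 without replicate 2 of the control, 206 without replicate 1 of TAK-243, 201 and 148 without replicate 1 and 2 of IFN-γ, and 146 and 85 without replicate 1 and 2 of both agents. The cause was not tested.

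With the replicate number as a block, the difference called 488 genes and the main effect 5190 higher and 5387 lower. The numbers share no stated origin, and the pairing correlations ran from 0.0443 to 0.15.

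Among single genes, Tgtp1 turned negative with DESeq2 (-0.822), with 1 mean per group (-1.027) and on log2(TPM + 0.1) (-0.263). Apcdd1 turned positive on log2(TPM + 1) and log2(TPM + 0.1), at 0.004 and 0.005, and Ifngr1 was at 0.01 on both. Mcl1 was at -0.069 with library totals and -0.01 with no filter. With 1 library left out, Ifngr1 ran from -0.13 to 0.027 and Mcl1 from -0.03 to 0.024. The cause was not tested. Genes of few counts set the limit of depth, and the intervals given for them cover counting error only.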

Other observations

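Changes of at least 2-fold were spread unevenly over expression levels, given here as a description. With the protein-coding genes in 5 bins of equal size by mean log2 CPM, in the lowest bin 24.1% of genes rose and 10.6% fell at least 2-fold, with a median log2 fold change of 0.34. In the next bin 10.8% rose and 23.9% fell, and in the highest bin 7.73% rose and 5.31% fell. Long intergenic noncoding RNAs had 12.7% higher and 4.85% lower of 1072 tested, and protein-coding genes 10.9% and 13.7% of 12430. These shares were not matched for expression level, and the lowest bin of protein-coding genes also held more genes that rose than fell. The part of expression level and of the filter in this contrast was not tested.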
